A study of Mus musculus with 4 samples.

Results

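The genes described here encode the synaptonemal complex and the meiotic forms of cohesin. They were 10 genes chosen by name for these roles, Sycp1, Sycp2, Sycp3, Syce1, Syce2, Syce3, Tex12, Stag3, Rec8 and Smc1b, of 21878 genes with mRNA values. Every transcript listed under one of these symbols was taken, 25 of 75959, and the transcripts were summed per gene. The synaptonemal complex is a protein zipper that joins homologous chromosomes along their length in meiotic prophase. Its lateral elements (SYCP2 and SYCP3) lie on chromosome axes held by meiotic cohesin (REC8, SMC1B and STAG3 in place of mitotic subunits), transverse filaments of SYCP1 cross the gap between the axes, and a central element (SYCE1, SYCE2, SYCE3 and TEX12) holds the filaments in the middle. Spermatocytes and oocytes use these genes, whereas most somatic cells keep many germline genes silent through DNA methylation of their promoters and through repressor complexes that contain E2F6, MGA and MAX.

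RNA came from C3H10T1/2, a mouse mesenchymal stem cell line, in 2 untreated samples (replicates 1 and 2) and 2 samples treated with 5-AZA (replicates 101 and 102). The drug 5-AZA, or 5-azacytidine, is built into nucleic acids in place of cytidine, traps DNA methyltransferases and so lowers DNA methylation, and it has long been used to turn this line into muscle-like cells. The treated cells received 20 μM 5-AZA for 72 hours and then grew in fresh medium for 21 days. The protocol text is identical for all 4 samples and lists no culture time for the untreated cells, so 5-AZA and time in culture cannot be told apart. The comparison asks how the members differed between treated and untreated cells. The study's text calls the replicates biological, but neither it nor the labels say that they were separate cultures, so p-values measure only the spread between these samples, part of which may be technical.

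Levels are FPKM, fragments scaled to transcript length and to the fragments of the library, a unit without read numbers, so how deeply any single level was sampled is unknown. Summed over all genes, FPKM came to 343955 in untreated replicate 1, 334568 in untreated replicate 2, 328410 in 5-AZA replicate 101 and 361664 in 5-AZA replicate 102. Circular RNA values in RPM (reads scaled to the library's total) were whole multiples of a step to within 0.01 of a step, the smallest being 2 steps, and the step, taken as 1 read, corresponds to totals of about 92975678, 93426482, 92903364 and 93920706 reads in the same order. At least 1 FPKM was reached by 10355 and 10298 genes in the untreated samples and by 10928 and 11124 after 5-AZA. Genes listed at 0 numbered 7111 and 7045 untreated and 5561 and 5478 after 5-AZA, while 10 genes that every cell uses, such as Gapdh and Polr2a, were all above 3.5 FPKM in each sample. The label of a mesenchymal line was checked against 12 markers, of which vimentin (Vim) was at 2268, 2406, 1178 and 1380 FPKM in that order. Col1a1, Col1a2, Col3a1, Fn1, Ly6a, Pdgfra, Pdgfrb and Cd44 were also expressed in untreated cells, the lowest being Cd44 at 22.05 and 19.98 FPKM. Eng was at 1.72 and 1.52 FPKM untreated, and Nt5e was listed at 0 in both untreated samples. Thy1, another surface marker used for such cells, was at 0.578 and 0.785 FPKM untreated.

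Of the 9 members below 0.1 FPKM in both untreated samples, all but Syce3 were detected in both samples treated with 5-AZA. The summed level of the 10 members was 0.377 and 0.382 FPKM in the untreated samples and 19.9 and 26.3 FPKM in the treated samples. Genes whose mean over the 4 samples reached 0.1 FPKM were tested with limma on log2(FPKM + 0.1), with Benjamini-Hochberg adjustment over 13199 genes, and called at an adjusted p below 0.05 and a change over 2-fold. Of the 10 members 8 were tested, 7 were called higher and 0 were called lower, with 7 at an unadjusted p below 0.05. Over all genes tested, 13.1% were called higher (1724 of 13199) and 1.32% lower (174 of 13199), and 4684 had an unadjusted p below 0.05. These counts depended on the setting: after quantile normalization 1041 genes were called higher and 886 lower, with 5 members called higher. A gene near 0 in untreated cells could pass the limit of 0.1 FPKM only through its 5-AZA values, so the count of 7 is a description and supports nothing beyond it. In 9 of the 9 detected members both 5-AZA values lay above both untreated values, against 36.0% of all detected genes (6300 of 17510). Here detected means above 0 in any sample. Syce2, Tex12, Rec8 and Smc1b, at 0 in both untreated samples, met this only through their 5-AZA values. They could not fall the other way, so this comparison is a description too. With 2 samples against 2, an exact permutation test of a single gene cannot give a two-sided p below 0.333. In bulk RNA, more cells that express a gene and more RNA per cell cannot be told apart.

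**Figure D1:**
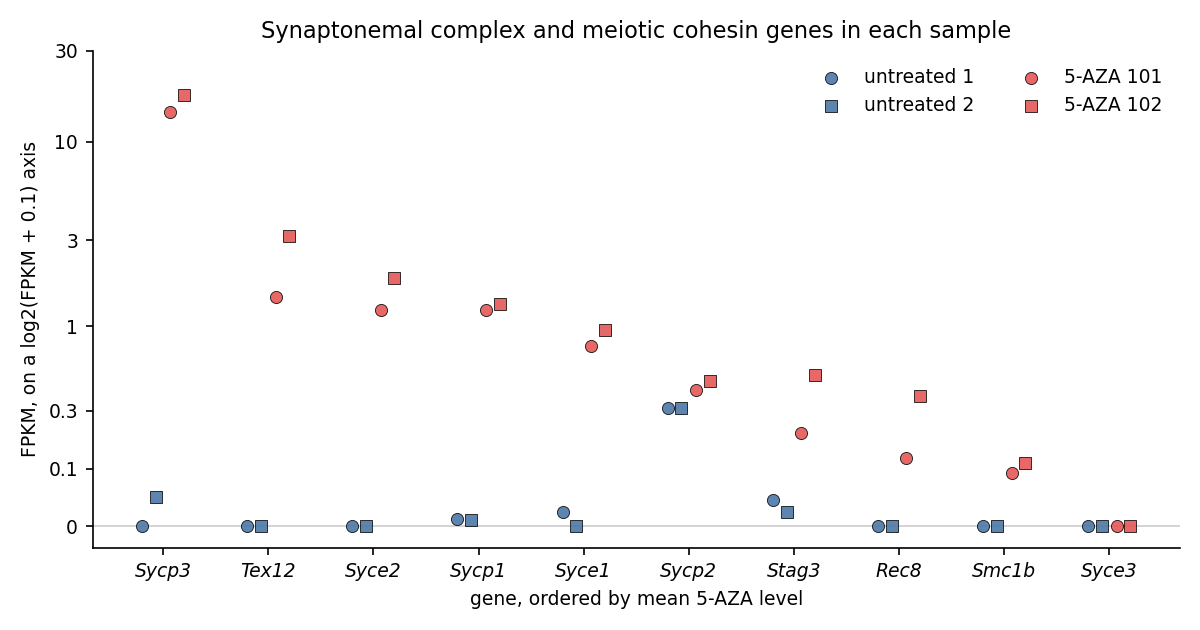
Level of each member in each sample, as points in FPKM on a log2(FPKM + 0.1) axis, with untreated replicates in blue and 5-AZA replicates in red and genes ordered by mean 5-AZA level. Sycp3 reached 14.3 and 17.5 FPKM after 5-AZA, Sycp2 lay at 0.313 FPKM in both untreated samples, and Syce3 was listed at 0 in all 4.

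Of the lateral element genes, Sycp3 rose and Sycp2 was not called. Sycp3, which encodes the main structural protein of the lateral element, was listed at 0 and 0.0426 FPKM in untreated replicates 1 and 2 and at 14.3 and 17.5 FPKM in 5-AZA replicates 101 and 102. Both treated samples were high, both untreated samples were near 0, and the groups did not overlap. Its log2 fold change on log2(FPKM + 0.1) was 7.06 (SE 0.269, adjusted p = 7.617e-07), rank 24 of the 13199 genes. The ratio of the group means was 747, with 1 of the untreated samples at 0, so it rests on the 0.0426 FPKM of untreated replicate 2. Sycp3 made up 72.0% and 66.6% of the summed member level in the treated samples.

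Sycp2 encodes the partner of SYCP3 in the lateral element. Its level was 0.313 and 0.313 FPKM in the untreated samples and 0.414 and 0.473 FPKM after 5-AZA. Sycp2 was thus the only member above 0.1 FPKM in untreated cells, the highest untreated value among the other members being 0.0426 FPKM. The treated values lay above the untreated values, and the log2 fold change, 0.39 (SE 0.311, adjusted p = 0.4125), was not called. After quantile normalization the direction turned, at -0.81 (adjusted p = 0.0547, the lowest in a range from 0.0547 to 0.7989 over 11 alternatives). Its 4 transcripts shared the sum unevenly: XM_006500664.2, the most abundant on average, held 85.2% and 10.8% of it in untreated replicates 1 and 2 and 13.4% and 59.5% in 5-AZA replicates 101 and 102. The shares of the transcripts therefore moved more between replicates than the sum did.

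The promoters of Sycp3 and Sycp2 are shown because the former gene was called and the latter was not, a difference that was not itself tested. They are RefSeq sequences on build GRCm38.p6, from 250 bases before to 50 bases after an annotated start, 5′ to 3′ on the strand of the gene, and all 10 members had at least 1 such promoter. Capitals mark matches to CACGTG, an E-box that reads the same on both strands and is a motif of the MYC and MAX family, and to GCGGGA on either strand (TCCCGC on the other), the core of E2F-type motifs. A match is a description of the letters and not evidence of binding. The Sycp3 promoter lies at chr10:88459337-88459636 on the plus strand and the Sycp2 promoter at chr2:178407609-178407908 on the minus strand, with a start 118 bases inside the RefSeq span of Sycp2.
Sycp3 promoter: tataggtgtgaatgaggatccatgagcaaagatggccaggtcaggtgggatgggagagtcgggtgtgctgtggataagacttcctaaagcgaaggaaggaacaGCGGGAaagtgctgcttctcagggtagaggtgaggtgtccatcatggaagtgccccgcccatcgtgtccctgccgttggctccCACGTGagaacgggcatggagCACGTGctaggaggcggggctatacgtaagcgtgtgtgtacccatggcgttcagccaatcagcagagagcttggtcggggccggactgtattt
Sycp2 promoter: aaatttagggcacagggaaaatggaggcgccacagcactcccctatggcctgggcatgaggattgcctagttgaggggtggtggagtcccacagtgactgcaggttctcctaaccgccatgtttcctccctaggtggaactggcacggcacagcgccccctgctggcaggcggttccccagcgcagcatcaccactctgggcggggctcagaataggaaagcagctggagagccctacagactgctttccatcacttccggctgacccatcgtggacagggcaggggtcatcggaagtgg
The Sycp3 promoter held 2 E-boxes, at positions -64 to -59 and -43 to -38 from the start, and an E2F-type core at -147 to -142. In the RefSeq set of 32851 promoters, 7.15% held an E-box, 0.594% held at least 2, and 20.0% held an E2F-type core. The Sycp2 promoter held neither motif and 10 CG dinucleotides, against 15 in that of Sycp3.

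Sycp1 encodes the transverse filament protein. It was at 0.00881 and 0.00785 FPKM in the untreated samples and at 1.24 and 1.34 FPKM in 5-AZA replicates 101 and 102. The treated samples were close to each other and far above the untreated samples, with group means that differed by 155 times. The log2 fold change was 3.68 (SE 0.326, adjusted p = 6.688e-05). It depends on the pseudocount of 0.1 FPKM, and at pseudocounts of 1 and 0.01 FPKM it was 1.19 and 6.15 for Sycp1. Its transcript NM_011516.2 was at 1.18 and 0.659 FPKM in the treated samples, and the variant XM_006501229.1 was at 0.0624 and 0.685 FPKM. The split between these transcripts differed between replicates more than the gene's sum did. The Sycp1 promoter, at chr3:102936051-102936350 on the minus strand of GRCm38.p6, is shown because it held both motifs.
Sycp1 promoter: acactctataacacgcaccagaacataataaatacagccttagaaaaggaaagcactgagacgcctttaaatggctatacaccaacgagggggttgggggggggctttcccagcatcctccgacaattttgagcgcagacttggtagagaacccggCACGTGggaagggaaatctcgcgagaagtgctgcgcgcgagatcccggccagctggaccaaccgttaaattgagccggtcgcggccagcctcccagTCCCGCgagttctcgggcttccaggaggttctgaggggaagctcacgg
Its E-box was at positions -94 to -89 and its E2F-type core at 3 to 8, just inside the transcript. The promoter held 21 CG dinucleotides, where the median was 7 over all promoters, 14 over those of genes with mRNA values and 21 over those of tested genes not called higher.

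The central element genes split into 3 that rose and 1 that was not detected. Syce1, whose protein binds the SYCP1 filaments, was at 0.0189 and 0 FPKM in untreated cells and at 0.775 and 0.949 FPKM after 5-AZA. Its groups did not overlap, and the log2 fold change was 3.14 (SE 0.353, adjusted p = 0.0002729). The call was lost at a pseudocount of 1 FPKM, where the log2 fold change was 0.88. Syce2 was listed at 0 in both untreated samples and at 1.24 and 1.88 FPKM in 5-AZA replicates 101 and 102. Tex12, whose protein forms fibres with SYCE2, was also listed at 0 in both untreated samples and was at 1.47 and 3.14 FPKM after 5-AZA. Replicate 102 was the higher in each of these genes, by a factor of 1.23 for Syce1, 1.52 for Syce2 and 2.14 for Tex12. The fitted log2 fold changes were 4.02 for Syce2 (SE 0.350, adjusted p = 6.077e-05) and 4.49 for Tex12 (SE 0.4005, adjusted p = 6.878e-05), and both depend on the pseudocount of 0.1 FPKM because the untreated values were 0. Syce3, the small central element protein gene, was listed at 0 in all 4 samples in both of its transcripts and was not tested. Across all genes 4368 of 21878 (20.0%) were listed at 0 in every sample.

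Among Syce2 transcripts NM_027954.3 was the most abundant on average, at 0.961 and 0.9001 FPKM in the treated samples. NM_001168246.1 was at 0.715 FPKM in replicate 102 and virtually 0 in replicate 101. The promoters of Tex12, at chr9:50561219-50561518 on the minus strand, and of the downstream of the Syce2 starts, at chr8:84872008-84872307 on the plus strand, are shown because both hold an E-box and an E2F-type core.
Tex12 promoter: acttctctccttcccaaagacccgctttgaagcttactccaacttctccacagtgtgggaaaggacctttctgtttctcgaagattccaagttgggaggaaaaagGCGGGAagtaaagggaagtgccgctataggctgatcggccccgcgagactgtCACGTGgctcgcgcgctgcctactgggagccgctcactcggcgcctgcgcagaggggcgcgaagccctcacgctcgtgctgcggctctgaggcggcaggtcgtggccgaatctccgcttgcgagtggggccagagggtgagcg
Syce2 promoter 2: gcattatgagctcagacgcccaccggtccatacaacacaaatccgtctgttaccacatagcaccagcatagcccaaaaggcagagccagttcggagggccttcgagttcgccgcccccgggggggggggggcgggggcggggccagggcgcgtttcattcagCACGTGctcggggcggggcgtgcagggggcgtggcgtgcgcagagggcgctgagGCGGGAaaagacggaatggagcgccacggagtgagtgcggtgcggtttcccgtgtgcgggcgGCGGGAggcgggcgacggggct
In Tex12 the E-box was at -93 to -88 and the E2F-type core at -145 to -140. In Syce2 the E-box was at -88 to -83, with E2F-type cores at -34 to -29 and at 29 to 34. The E-boxes of Sycp1, Tex12 and the downstream Syce2 start thus lay within a few bases of the same distance from their starts. Those of Sycp3, at -64 to -59 and -43 to -38, and of Stag3, at -170 to -165, lay elsewhere. The promoter of the outer Syce2 start held no E-box. The Tex12 and downstream Syce2 promoters held 26 and 33 CG dinucleotides, and the Syce1 promoter, with neither motif, held 14.

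The meiotic cohesin genes reached lower levels after 5-AZA than Sycp3, Tex12, Syce2, Sycp1 and Syce1. Stag3, the meiotic counterpart of the STAG1 and STAG2 subunits, was at 0.0364 and 0.0191 FPKM in untreated cells and at 0.208 and 0.517 FPKM after 5-AZA. The treated values differed from each other by a factor of 2.48, and the lower of them was still above both untreated values. Its log2 fold change was 1.78 (SE 0.448, adjusted p = 0.02036), with group means that differed 13.1 times. The size depended on the treated sample, at a log2 fold change of 1.27 without 5-AZA replicate 102 and 2.28 without replicate 101. The call was lost under 6 of 11 alternatives, without untreated replicate 2 (adjusted p = 0.0639) or 5-AZA replicate 102 (adjusted p = 0.0675), with no limit on low values, with NM transcripts alone, at a pseudocount of 1 FPKM and after quantile normalization. In the last 2 of these the log2 fold change fell to 0.398 and 0.367. Adjusted p ranged from 0.01746 to 0.5055. Rec8, which encodes the meiotic kleisin that closes the cohesin ring, was listed at 0 in both untreated samples and was at 0.128 and 0.378 FPKM after 5-AZA. Both treated values were low, and replicate 102 was 2.94 times replicate 101. The fitted log2 fold change was 1.72 (SE 0.476, adjusted p = 0.02995), and the call was lost under 6 of 11 alternatives, without untreated replicate 1 (adjusted p = 0.0894) or untreated replicate 2 (adjusted p = 0.0907) and under the same 4 settings as for Stag3. Its log2 fold change fell to 0.32 at a pseudocount of 1 FPKM and to 0.49 after quantile normalization, and adjusted p ranged from 0.01162 to 0.3771. Smc1b, the meiotic SMC1 subunit, was listed at 0 in both untreated samples and at 0.0892 and 0.115 FPKM after 5-AZA. Its mean was below 0.1 FPKM, so it was not tested, and with no limit on low values its adjusted p was 0.02511, the only alternative that tested it.

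The single Stag3 promoter of the set, at chr5:138280259-138280558 on the plus strand, belongs to an internal start, 7995 bases inside the RefSeq span of the gene, and the outermost start of Stag3 has no sequence there. Among the promoters of Stag3, Rec8 and Smc1b in the set, it alone held both motifs.
Stag3 promoter: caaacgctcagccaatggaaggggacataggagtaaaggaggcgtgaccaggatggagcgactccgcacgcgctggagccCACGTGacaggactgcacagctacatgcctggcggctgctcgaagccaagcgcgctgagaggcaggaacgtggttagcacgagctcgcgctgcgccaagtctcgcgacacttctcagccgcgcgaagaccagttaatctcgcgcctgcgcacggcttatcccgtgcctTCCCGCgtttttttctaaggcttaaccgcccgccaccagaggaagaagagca
Its E-box was at -170 to -165 from that start, farther than in the other members with an E-box, and its E2F-type core spanned the start at -2 to 4. The Rec8 promoter, from a start 164 bases inside that gene, and the Smc1b promoter held an E2F-type core, at -38 to -33 and -47 to -42, and no E-box. CG dinucleotides numbered 30 in the Stag3 promoter, 29 in that of Smc1b and 18 in that of Rec8.

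Set against mitotic cohesin in the same samples, the meiotic subunits were minor. Smc1a was at 31.1, 29.9, 28.1 and 27.8 FPKM in untreated 1, untreated 2, 5-AZA 101 and 5-AZA 102, and Smc1b came to 0.318% and 0.413% of it in the treated samples. Rad21, the mitotic kleisin, was at 35.2, 31.7, 32.2 and 32.0 FPKM, and Rec8 came to 0.399% and 1.18% of it after 5-AZA. Stag3 came to 1.79% and 4.13% of Stag1 and to 0.560% and 1.43% of Stag2 after 5-AZA. The mitotic subunits were therefore far above their meiotic counterparts in each treated sample. Of 16 genes for mitotic cohesin and its regulators, limma tested 16 and called 0 in either direction, with 1 at an unadjusted p below 0.05. Their log2 fold changes ran from -0.29 to 0.09 with a median of -0.14, where the median of all genes tested was 0.05. The most abundant, Stag2, was at 46.3 and 43.7 FPKM untreated and 37.2 and 36.1 FPKM after 5-AZA (adjusted p = 0.05875).

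**Figure D2:**
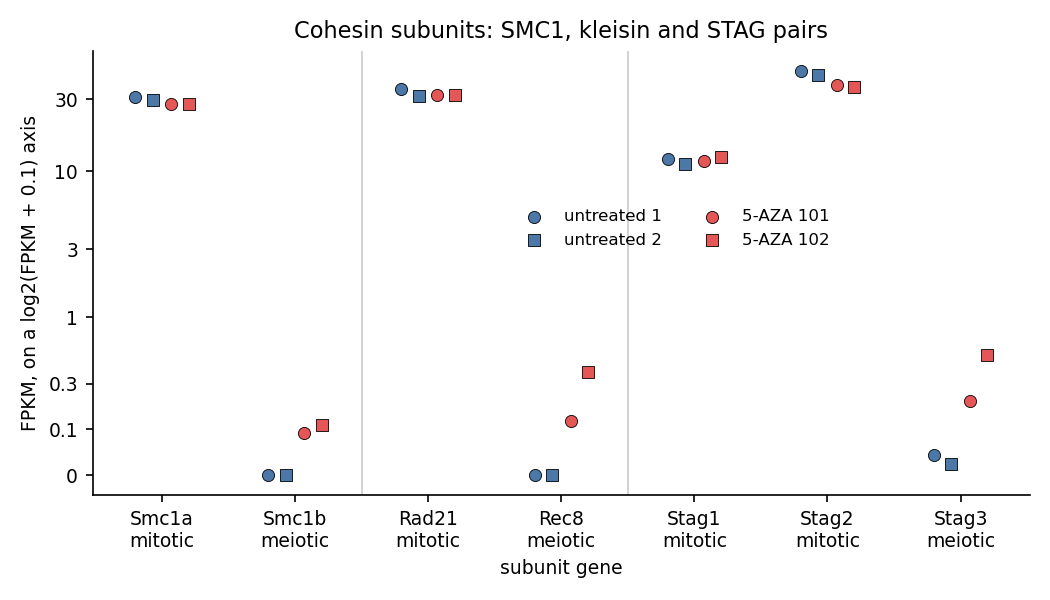
Levels of meiotic cohesin subunits and their mitotic counterparts in each sample, as points in FPKM on a log2(FPKM + 0.1) axis, with untreated replicates in blue and 5-AZA replicates in red. The mitotic subunits lay above 10 FPKM in all 4 samples, and the meiotic subunits stayed at or below 0.517 FPKM.

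By mean level after 5-AZA the members fell into the order Sycp3, Tex12, Syce2, Sycp1, Syce1, Sycp2, Stag3, Rec8, Smc1b and Syce3. Sycp3, at a mean of 15.9 FPKM, stood clear of Tex12 at 2.30 FPKM, whose lowest and highest values were 1.47 and 3.14. The values of Tex12 overlapped those of Syce2, and those of Syce2 overlapped those of Sycp1. Sycp2, Stag3 and Rec8 also overlapped their neighbours in this order, so their ranks are not resolved. The proteins of the complex thus had transcripts at unequal levels, with Syce3 listed at 0. The median log2 fold change of the 8 tested members was 3.41, from 0.39 for Sycp2 to 7.06 for Sycp3. Of the called members 5, all but Sycp1 and Stag3, had at least 1 untreated value of 0. The fitted changes of all called members depend on the pseudocount. At pseudocounts of 1 and 0.01 FPKM, Sycp1 came to 1.19 and 6.15 and Stag3 to 0.398 and 3.21 (log2). All tested members but Sycp2 entered this median only through their 5-AZA values, so it is a description.

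**Figure D3:**
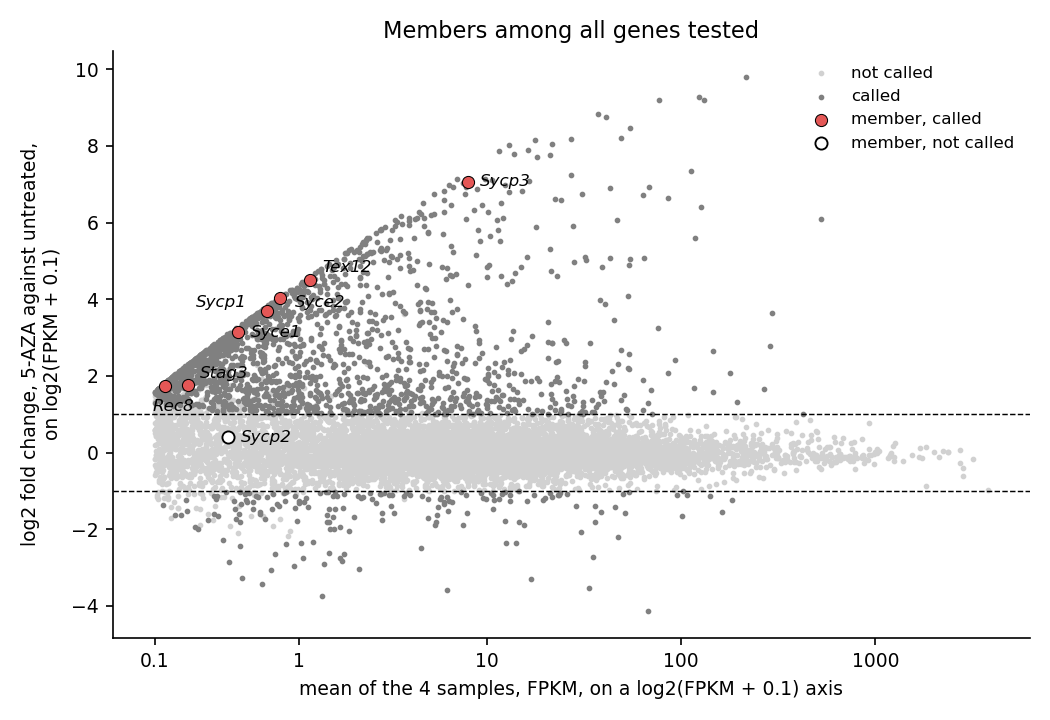
Each point is a gene tested, with its mean over the 4 samples in FPKM on a log2(FPKM + 0.1) axis and its log2 fold change after 5-AZA. Dashed lines mark a 2-fold change; the tested members apart from Sycp2 lie along the upper edge, where untreated values are at or near 0, and Sycp2 turns to -0.81 after quantile normalization.

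The 5 genes tested whose levels were most like those of Sycp3 were found by Euclidean distance over the 4 samples on log2(FPKM + 0.1). They were Slc47a1 (distance 0.481), Tex19.1 (0.535), Gtsf1 (0.576), Myh1 (0.578) and Tceal7 (0.680). Tex19.1 and Gtsf1 are germline genes involved in the control of transposons, Myh1 encodes a fast skeletal muscle myosin and Slc47a1 an organic cation exporter. Tex19.1 was at 0.0443 and 0.0425 FPKM untreated and at 14.0 and 16.7 FPKM after 5-AZA, and Myh1 at 0.00160 and 0.0156 FPKM untreated and at 10.2 and 16.6 FPKM. Germline and muscle genes thus both occur among the nearest profiles. Among all genes, 1965 were listed at 0 in both untreated samples and above 0 after 5-AZA, and 55 of them, with Syce2 and Tex12 among them, reached 1 FPKM in both treated samples.

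Genes that act beside the members in meiosis moved unevenly. Of 22 genes of meiotic recombination 12 were tested, and limma called 4 higher and 0 lower, with 7 at an unadjusted p below 0.05. Their median log2 fold change was 0.39. Hormad1, which marks unsynapsed chromosome axes, was at 0 and 0.0243 FPKM untreated and at 2.15 and 1.90 FPKM after 5-AZA (log2 fold change 4.25, adjusted p = 2.468e-05). Rec114, a cofactor of double-strand break formation, was listed at 0 in both untreated samples and was at 0.819 and 1.98 FPKM after 5-AZA (adjusted p = 0.000317). Both rose from near 0, as most members did. Hsf2bp, a partner of BRCA2, was at 0.165 and 0.0496 FPKM untreated and at 2.02 and 2.74 FPKM after 5-AZA, and its log2 fold change was 3.62 (adjusted p = 0.0001279). That call was lost without 5-AZA replicate 101 (adjusted p = 0.07857) or 102 (adjusted p = 0.09664), in a range from 1.203e-08 to 0.09664 over 11 alternatives. Tex11, a meiotic crossover factor, was the other gene called. Trip13, which removes HORMAD proteins at synapsis, was at 3.57, 3.03, 3.43 and 3.55 FPKM and was not called (adjusted p = 0.7951). Spo11, the enzyme that makes meiotic double-strand breaks, and Meiob were listed at 0 in all 4 samples.

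Among 10 other genes of synapsis, telomere attachment and meiotic cohesion 4 were tested, 1 was called higher and 0 lower, with 2 at an unadjusted p below 0.05. Fkbp6, a meiotic immunophilin, was that gene, at 0.0329 and 0 FPKM untreated and 7.65 and 10.2 FPKM after 5-AZA (log2 fold change 6.27, adjusted p = 1.908e-06). Sun1, a nuclear envelope protein that somatic cells also use, was at 23.8 and 20.7 FPKM untreated and 17.7 and 17.9 FPKM after 5-AZA (adjusted p = 0.08128). Rad21l, the other meiotic kleisin, was listed at 0 in all 4 samples, unlike Rec8.

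Some germ cell identity and piRNA genes rose in the same samples as the members, and others stayed at 0. Of 22 listed 14 were tested, of which limma called 12 higher and 0 lower, with 14 at an unadjusted p below 0.05. The number called higher was 7 at a pseudocount of 1 FPKM and 6 at a limit of 1 FPKM. The median of their log2 fold changes was 3.36. As for the members, genes near 0 in untreated cells entered the test through their 5-AZA values. Sohlh2, a transcription factor of early germ cells, was at 0.0302 and 0.0139 FPKM untreated and 8.003 and 10.2 FPKM after 5-AZA. Tex101, a germ cell surface protein gene, was at 0.0270 and 0 FPKM untreated and 5.02 and 9.41 FPKM after 5-AZA. Dazl, which encodes a germ cell RNA-binding protein, was listed at 0 in both untreated samples and was at 5.48 and 5.74 FPKM after 5-AZA. These genes reached levels between those of Tex12 and Sycp3. Of the 8 genes not tested, Piwil1, Nanos2 and Dppa3 were listed at 0 in all 4 samples, and Mael, Tdrd1 and Nanos3 had overlapping groups. The others, Piwil4 (0.177 and 0.206 FPKM after 5-AZA) and Sohlh1 (0.0873 and 0.0457 FPKM), were listed at 0 in both untreated samples. Stra8, a gene induced at entry into meiosis, was at 0.0364 and 0 FPKM untreated and 0.115 and 0.370 FPKM after 5-AZA and was not called (adjusted p = 0.06576).

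Markers of later germ cells and of the somatic cells of the testis were mostly at or near 0. Of 13 spermatid and oocyte markers 9 stayed below 0.1 FPKM in each sample, 6 of these being listed at 0 throughout, the protamine genes Prm1 and Prm2 among them. In this list limma tested 3 genes and called 0, with 1 at an unadjusted p below 0.05. Its most abundant gene, Tnp2, was at 2.62, 4.29, 4.61 and 3.48 FPKM, with overlapping groups, and the list summed to 3.09, 4.90, 4.91 and 4.04 FPKM. The 7 Sertoli and Leydig markers summed to 0.198, 0.380, 0.478 and 0.360 FPKM, with 1 tested (Star, adjusted p = 0.2642), 0 called and 0 at an unadjusted p below 0.05. Fshr and Gata1 were listed at 0 throughout. The 6 immune cell markers summed to 1.17, 1.502, 2.40 and 3.74 FPKM, in which Cd68 was the most abundant. Of these Cd3e and Adgre1 were listed at 0 in all samples and Cd68 was called higher, at 1.16, 1.47, 2.27 and 3.69 FPKM. The Cd68 call depended on the setting and held under 3 of 12 alternatives, with adjusted p from 0.006068 to 0.2068. It was lost without 5-AZA replicate 101 (adjusted p = 0.1018), 5-AZA replicate 102 (adjusted p = 0.2068) or untreated replicate 1 (log2 fold change 0.94, under 2-fold) and under 6 of the settings that kept all samples.

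Skeletal muscle markers also moved with the members. All 10 of 10 were called higher, with a median log2 fold change of 8.03, and their summed level was 1.61 and 1.27 FPKM untreated and 813 and 1245 FPKM in 5-AZA replicates 101 and 102. The most abundant, Mylpf, a fast muscle myosin light chain, was at 0.392 and 0.376 FPKM untreated and 353 and 517 FPKM after 5-AZA. Acta1 was at 182 and 312 FPKM and Tnni2 at 64.0 and 100.4 FPKM after 5-AZA, both below 0.4 FPKM untreated. Every muscle marker was higher in replicate 102 than in replicate 101, as were 9 of the 9 detected members and 74.6% of all genes tested, for which the median ratio was 1.11. Adipocyte and cardiac muscle markers were added as lists after values had been seen. Of 10 adipocyte markers 9 were tested, and limma called 8 higher and 0 lower, with 9 at an unadjusted p below 0.05. Without 5-AZA replicate 101 or 102 the number called was 3, and without untreated replicate 2 it was 9. Pparg, at 13.8 and 15.9 FPKM untreated and 22.2 and 36.0 FPKM after 5-AZA, changed by less than 2-fold (log2 fold change 0.92, adjusted p = 0.01137) and was called higher only without untreated replicate 2 (log2 fold change 1.02, adjusted p = 0.0008902). The list's summed level was 49.3 and 32.9 FPKM untreated and 1177 and 1610 FPKM after 5-AZA. The most abundant, Fabp4, a fatty acid carrier, was at 22.9 and 9.67 FPKM untreated and 887 and 1196 FPKM after 5-AZA, and its call was lost without 5-AZA replicate 101 (adjusted p = 0.07037) or 102 (adjusted p = 0.08201), in a range from 1.396e-19 to 0.08201 over 12 alternatives. Of 10 cardiac markers 6 were tested, and limma called 5 higher and 0 lower, with 5 at an unadjusted p below 0.05 and sums of 2.90 and 3.24 FPKM untreated and 96.7 and 144.3 FPKM after 5-AZA. Their most abundant gene, Actc1, which developing skeletal muscle also uses, was at 61.6 and 89.2 FPKM after 5-AZA, while Gata4 was at 2.13, 2.17, 2.02 and 3.10 FPKM and was not called (adjusted p = 0.5842). Nppa, Nppb and Tbx5 were listed at 0 in all 4 samples, and Nkx2-5 stayed below 0.1 FPKM. Without 5-AZA replicate 102 the number of cardiac markers called was 4, as the call of Tnni3 was lost (adjusted p = 0.05998). It was also 4 with no limit on low values, where Tnni3 lost its call, at a pseudocount of 1 FPKM and after quantile normalization, where Myh6 lost its call (log2 fold change 0.43 and 0.91, against 2.16), and with NM transcripts alone or a limit of 1 FPKM, where Myh6 was not tested. The part of muscle or fat cell formation, or of the cells that carry Cd68, in the members' levels was not tested. Of the 12 mesenchymal markers 11 were tested, all 11 at an unadjusted p below 0.05, and 9 had an adjusted p below 0.05, 5 higher and 4 lower. Among these 1 passed 2-fold and was called higher, Thy1, which reached 10.4 and 14.2 FPKM after 5-AZA, and Vim, lower in both treated samples, changed by less than 2-fold (log2 fold change -0.87, adjusted p = 0.001188). Of 12 proliferation genes limma called 0, with 3 at an unadjusted p below 0.05 and a median of -0.24. The most abundant of them, Pcna, was at 93.3 and 83.3 FPKM untreated and 70.8 and 71.8 FPKM after 5-AZA (adjusted p = 0.05562).

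**Figure D4:**
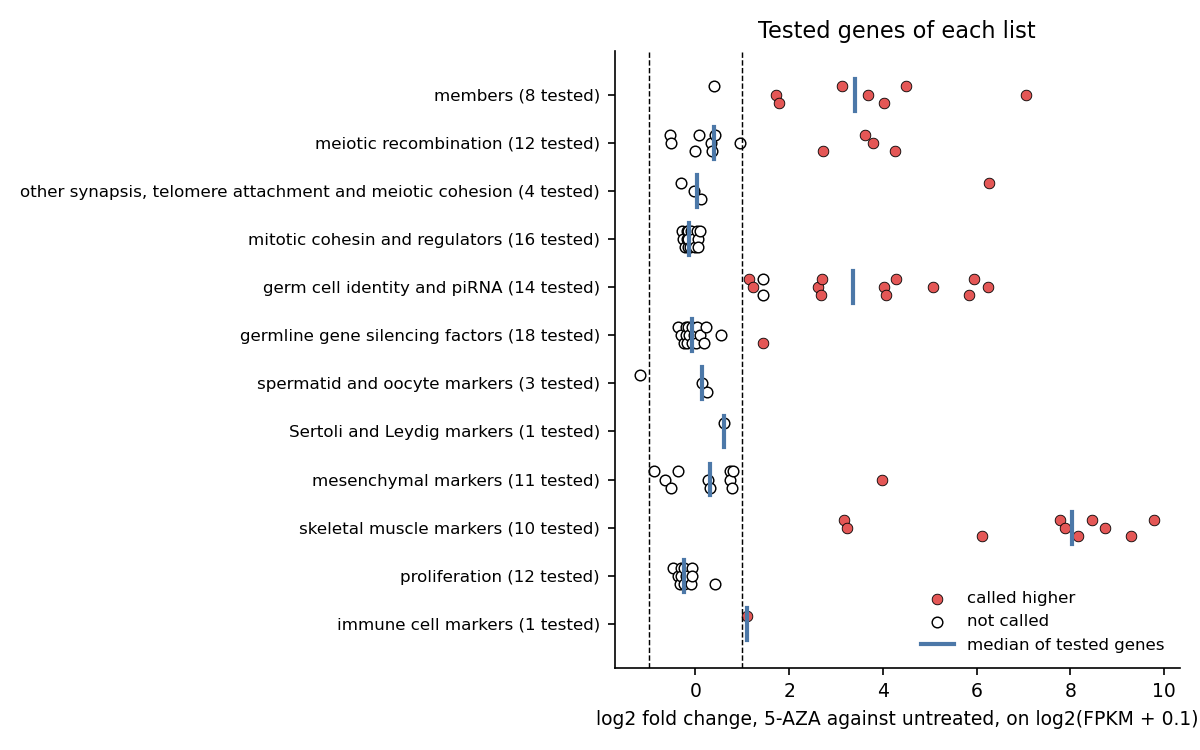
Log2 fold change after 5-AZA of each tested gene, grouped by list, with filled points for genes called higher, open points for genes not called and a blue bar at the median of the list. The members have a median of 3.41, the germ cell list 3.36, the muscle markers 8.03 and the mitotic cohesin genes -0.14. Genes near 0 in untreated cells entered only through their 5-AZA values, so the medians of lists that hold them are descriptions.

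Transcripts of factors that silence germline genes in somatic cells were present in both groups, and the proteins were not measured. Of 18 such genes limma tested 18, called 1 higher and 0 lower, with 3 at an unadjusted p below 0.05 and a median change of -0.08 (log2). The gene called was E2f6, which encodes the E2F protein of the repressor complexes, at 4.995 and 3.69 FPKM untreated and 11.55 and 11.95 FPKM after 5-AZA (log2 fold change 1.43, SE 0.171, adjusted p = 0.0003829). Its treated values were close and lay above both untreated values. The call was lost without 5-AZA replicate 101 (adjusted p = 0.1132) or 102 (adjusted p = 0.1259), in a range from 1.458e-06 to 0.1259 over 12 alternatives. The most abundant gene of the list, Cbx3, was at 138 and 125.5 FPKM untreated and 109.7 and 94.1 FPKM after 5-AZA, less than a 2-fold change (log2 fold change -0.37, adjusted p = 0.03881).

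Across the 12 promoters of the 10 members 5 held an E-box (41.7%) and 8 held an E2F-type core (66.7%), and each of the 5 with an E-box also held an E2F-type core. Both motifs together were found in 1.99% of all 32851 promoters and in 2.69% of the 19891 promoters of genes with mRNA values. By gene, 5 members held an E-box and 7 an E2F-type core, and Syce1, Syce3 and Sycp2 held neither. The members without a match thus include Syce1, which rose, Sycp2, which was not called, and Syce3, which was listed at 0. Among promoters of genes called higher 7.87% held an E-box and 22.8% an E2F-type core, against 9.88% and 35.3% among promoters of tested genes not called higher. The germ cell list held an E-box in 10 of 22 promoters and an E2F-type core in 4, and the recombination list an E-box in 4 of 21 and an E2F-type core in 14. CG dinucleotides in the members had a median of 18.5 for each promoter, against 8 in genes called higher and 21 in tested genes not called higher. The Syce3 promoters held 15 and 5.

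**Figure D5:**
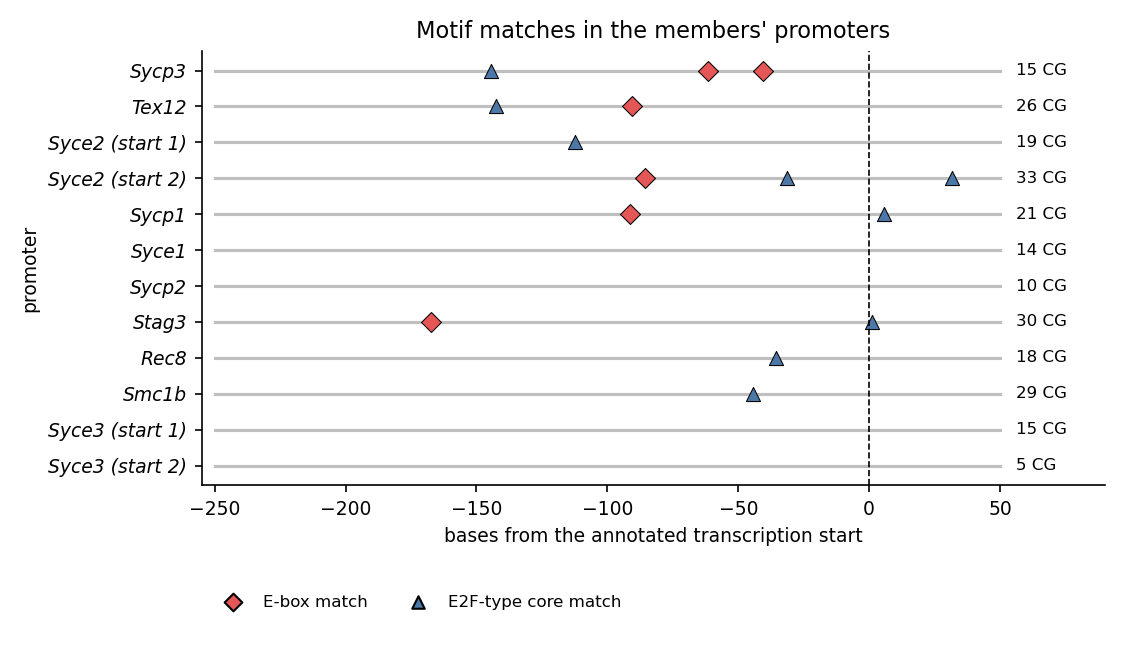
Positions of E-box matches (diamonds) and E2F-type core matches (triangles) in the members' promoters, in bases from the annotated start, with the number of CG dinucleotides at the right. Sycp3 holds 2 E-boxes between -64 and -38, and the promoters of Syce1, Sycp2 and Syce3 hold no match.

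Several members share genomic sequence with other genes, and the sources used here do not state whether the counting used the strand, so reads from overlapping genes on opposite strands cannot be told apart with certainty. Tex12 lies wholly within the span of Il18 on the other strand (4121 bases), and Il18 was at 4.09, 5.00, 4.90 and 5.13 FPKM where Tex12 went from 0 to 1.47 and 3.14. Chpt1 overlaps 3724 bases of Sycp3 on the other strand and was at 45.3, 42.3, 54.5 and 58.4 FPKM. Fam118a overlaps 52892 bases of Smc1b and was at 10.3, 10.2, 13.5 and 11.7 FPKM. These neighbours were well expressed in untreated cells, where Tex12 and Smc1b were listed at 0 and Sycp3 was at most 0.0426 FPKM. Gcdh, which overlaps Syce2, was at 6.81 and 7.47 FPKM untreated and 5.35 and 6.16 FPKM after 5-AZA. At Stag3, Gpc2 was at 0, 0, 0.101 and 0.0685 FPKM and Gal3st4 at 0.129, 0.1195, 0.3905 and 0.208 FPKM, levels as low as those of Stag3.

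Long noncoding RNAs overlapped 5 of the members, 10 in all, and 5 of these reached 0.1 FPKM in a sample. Within Syce2 and on its strand, NONMMUT066418.2 was at 0 and 0.0417 FPKM untreated and 0.292 and 0.508 FPKM after 5-AZA. It was higher in both treated samples, like Syce2 itself. This transcript has 1 exon and lies wholly inside the Syce2 span, so its reads cannot be told apart from those of Syce2 RNA with certainty. Antisense to Sycp3, NONMMUT006740.2 was at 0.955, 1.82, 1.16 and 0.890 FPKM and NONMMUT006741.2 at 0.0220, 10.8, 8.72 and 4.94 FPKM. Neither followed Sycp3, since their highest values were in untreated replicate 2. The antisense transcript at Tex12, NONMMUT069053.2, was at 0.0848, 0.231, 0.244 and 0.0799 FPKM, with overlapping groups, and the antisense transcript at the Sycp1 start, NONMMUT044523.2, was listed above 0 only in 5-AZA replicate 102, at 0.115 FPKM. Of 4295 circular RNAs 0 had a member as host gene.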

How the data were processed

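RNA of 2 untreated and 2 5-AZA samples was analysed, grouped by the treatment label. The authors removed ribosomal RNA, made stranded libraries and deposited FPKM values per mRNA and lncRNA transcript and RPM values per circular RNA. The submitters' processing notes name Trimmomatic, HISAT2, Bowtie2 2.2.9, eXpress 1.5.1 and mm9, without roles. Positions were compared with RefSeq genes of GRCm38.p6, in which 89.5% of 2427 host transcripts of circular RNAs lay inside their gene; mm9 gene positions were not compared here.

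FPKM was summed per gene, genes with a mean of at least 0.1 FPKM were kept, and log2(FPKM + 0.1) was fitted with limma 3.58.1 (lmFit, eBayes with trend) in R 4.3.3, with Benjamini-Hochberg adjustment over all 13199. The paper's methods name DESeq, which needs counts. Fold changes are on the log2(FPKM + 0.1) scale and understate changes of low genes. Other steps used Python 3.11.15, pandas 2.3.3, matplotlib 3.10.9 and data.table (version 1.17.8). The fit was tested on simulated data, with changes placed only in genes whose untreated mean of log2(FPKM + 0.1) was positive. No member reached that level untreated, so the simulation does not cover genes that rise from very low levels. RPM values served only for host genes and library totals.

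The members and the 11 gene lists were chosen with earlier results of these data known. Adipocyte and cardiac lists were added after values had been seen. All members were named. From each of the 11 lists came up to 3 called genes with the largest change and the most abundant tested gene that was not called, together with the 5 genes nearest to Sycp3 and the most abundant transcript of each member. Other genes and transcripts named, those of the added lists too, overlapping genes and lncRNAs were chosen after their values were seen. Alternatives were pseudocounts of 1 and 0.01 FPKM, no limit on low values or a limit of 1 FPKM, median centring, quantile normalization, eBayes without trend, curated (NM) transcripts alone and fits with any 1 sample omitted. A fit of single transcripts was added after seeing the data.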

Additional observations from a re-analysis of the deposited data

How the results depend on the processing

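Of 90 member fold changes under 12 alternatives, 76 kept their direction and their side of the threshold, 13 kept their direction and lost the call, and 1 reversed. Sycp3 and Tex12 were called under all 12, and the other members could not be tested at a limit of 1 FPKM. The members called higher were 7, against 4 at a pseudocount of 1 FPKM, where Syce1 changed by 0.88 (log2), and 2 at a limit of 1 FPKM, where only 2 were tested. A fit of single transcripts, added after seeing the data, called 2, Sycp3 and Tex12. Omitting each sample in turn gave 5 to 7 members. Stag3 and Rec8 also lost their calls at a pseudocount of 1 FPKM, with no limit, after quantile normalization and with NM transcripts alone. All genes called higher were 1724, against 875 at a pseudocount of 1 FPKM, 845 at a limit of 1 FPKM, 1041 after quantile normalization and 785 to 1616 with a sample omitted. Those called lower were 174, against 86, 83 with no limit, 886 after quantile normalization and 50 to 181. Quantile normalization thus split the calls 1041 to 886, against 1724 to 174, moved the median of all genes from 0.05 to -0.12 (centring, to -0.06) and turned Sycp2 to -0.81. Recombination genes called higher were 4, against 2 at a limit of 1 FPKM, and lower 0, against 1 after quantile normalization. Germ cell genes called higher were 12, against 7 at a pseudocount of 1 FPKM and 6 at a limit of 1 FPKM. Silencing factors called higher were 1, and 0 to 1 with a sample omitted, and lower 0, against 1 after quantile normalization. The limit of 1 FPKM tests fewer genes; for the other settings the cause was not tested. With a sample omitted, the lone sample of its group is assumed to vary like the others. No paired analysis was possible because the groups share no replicate number (1 and 2 against 101 and 102). FPKM keeps no counts, so depth limits the low values of Stag3, Rec8 and Smc1b to an unknown degree.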
